A study of Mus musculus with 5 samples.

Results

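Mir155hg and Mir17hg are microRNA host genes, long non-coding RNAs whose primary transcript is cut into microRNAs. They were taken by symbol from the 32285 genes of the series, beside which 10 other symbols have the same form, and both were detected in each of the 5 libraries. The pair was chosen on these data: Mir155hg stood high in T cells that held RNA of Irf4, Nr4a1 and Il2ra, and Mir17hg was set beside it. Their levels in those cells are therefore a description and carry no test. The counts are of the host RNA that the 5' kit captured, and no mature microRNA was measured.

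The cells came from 5 mouse samples, 1 per group. Naive OT-II CD4 T cells, which carry a transgenic T cell receptor for an ovalbumin peptide on MHC class II, were purified by negative selection from the splenocytes of 1 unimmunised OT-II animal, a step shared by all groups. They were profiled alone without treatment, or after they had spent a night in coculture with apCAFs, cancer-associated fibroblasts that present antigen, which had been sorted out of pancreatic tumors of mice. These cocultures were of the tumor clone sKPC with DMSO, of sKPC with OVA, of the clone rKPC with DMSO and of rKPC with OVA. Each tumor clone is a single one, and the age of the mice is not in the labels. The 2 deposited matrices, called G and H here, hold 3 and 2 libraries, while the labels tie 2 and 3 samples to them. No source used here says which library is which sample, so the libraries are named Ga, Gb, Gc, Ha and Hb, belong to no group, and support no statement on coculture, clone or OVA.

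Of 25623 barcodes, 24890 had 500 or more UMIs (unique molecular identifiers, 1 for each captured RNA molecule) and at most 10% mitochondrial UMIs, and 22874 of these held a UMI of Cd3d, Cd3e or Cd3g. These Cd3+ barcodes numbered 3081 to 6419 per library, with 7928 to 8768 UMIs at the median. Trac was found in 99.7% to 99.9% of them and Cd4 in 59.1% to 71.8%. Trdc, a constant segment of the gamma-delta receptor, had a UMI in 18.4% to 23.2%, and Foxp3, which defines regulatory T cells, in 1.52% to 2.43%. Among markers of other types, Cd79a of B cells reached 2.89%, Lyz2 of myeloid cells 3.19%, and no fibroblast marker passed 0.747%. The globin RNA Hbb-bs had a UMI in 16.9% to 31.0% of them. Any pair of libraries shared 2 to 14 barcode sequences.

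MicroRNAs guide Argonaute proteins to messenger RNAs that match their seed, bases 2 to 8, and lower the output of those messengers. miR-155, made from Mir155hg (once called BIC), is known from activated lymphocytes and myeloid cells, where the host gene is switched on by NF-kB and AP-1 factors and the microRNA favours clonal expansion and cytokine production by T cells. Mir17hg carries the miR-17-92 cluster, a Myc and E2F target that promotes lymphocyte proliferation and survival and helper T cell responses. Irf4, Nr4a1 and Il2ra, used here to sort the cells, are a transcription factor graded by T cell receptor signal strength, an immediate early nuclear receptor of the same signal, and the alpha chain of the interleukin-2 receptor.

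In the mouse genome build GRCm38, Mir155hg (ENSMUSG00000097418) lies on the plus strand of chromosome 16, chr16:84703167-84715245, and has 2 annotated transcripts. Their first exons start at 84703167 and 84713023. Both share exon 2, chr16:84714053-84715245, which holds the hairpin at 84714140 to 84714204. Mir17hg (ENSMUSG00000089726) lies on the plus strand of chromosome 14, chr14:115042879-115046727. Its 6 hairpins fall within 836 bases of exon 2, between 115043671 and 115044506.

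The mature microRNAs below are the guides these hosts encode, shown because the 2 hosts deliver different seeds and their counts cannot stand for one another. They were taken from RefSeq (GRCm38.p6), run 5′ to 3′, and have the seed in capitals.
mmu-miR-155-5p: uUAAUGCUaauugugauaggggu
mmu-miR-17-5p: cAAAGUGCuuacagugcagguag
mmu-miR-20a-5p: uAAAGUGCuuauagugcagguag
mmu-miR-18a-5p: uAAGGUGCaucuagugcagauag
mmu-miR-19a-3p: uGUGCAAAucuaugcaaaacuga
mmu-miR-19b-3p: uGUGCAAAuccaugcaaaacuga
mmu-miR-92a-3p: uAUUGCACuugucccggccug

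The 6 guides of Mir17hg carry 4 distinct seeds. miR-17-5p and miR-20a-5p share AAAGUGC and are identical at 21 of 23 positions, and miR-18a-5p differs from that seed at 1 base. miR-19a-3p and miR-19b-3p share GUGCAAA and are identical at 22 of 23 positions. The seed of miR-155-5p, UAAUGCU, differs from the nearest of the others at 5 of its bases.

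Mir155hg varied widely between libraries, and Mir17hg far less. Levels are given in CPM, the gene's UMIs divided by all UMIs of the same barcodes and scaled as usual, with exact 95% Poisson intervals that cover counting error only. Mir155hg stood at 156 CPM in Ga (153 to 160, from 7590 UMIs), 140 in Gc (137 to 143, 8277 UMIs), 17.0 in Gb (15.5 to 18.7, 438 UMIs), 14.5 in Ha (13.3 to 15.8, 528 UMIs) and 11.3 in Hb (10.2 to 12.5, 384 UMIs). No neighbours in that order had the same value within counting error except Gb and Ha, whose intervals overlap. From Ga to Hb the level spanned 3.79 on the log2 scale (3.64 to 3.94), or 13.8-fold. Of 14758 genes with 100 or more UMIs in Cd3+ barcodes, 13.8% spanned at least 2-fold, and Mir155hg was 247th by span.

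Mir17hg stood at 18.8 CPM in Gc (17.7 to 19.96, from 1117 UMIs), 18.4 in Ga (17.2 to 19.7, 895 UMIs), 15.1 in Hb (13.8 to 16.4, 512 UMIs), 15.0 in Ha (13.8 to 16.3, 545 UMIs) and 13.7 in Gb (12.3 to 15.2, 353 UMIs). Gc and Ga lay above the other 3 libraries, and within each of those sets the intervals overlapped. The span was 0.46 on the log2 scale (0.28 to 0.63), or 1.37-fold, 6187th of the same 14758 genes. The order of the libraries was thus not the same for the 2 hosts: Gb held the third highest Mir155hg level and the lowest Mir17hg level.

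The share of Cd3+ barcodes with a Mir155hg UMI was 21.0% in Ga, 18.5% in Gc, 7.56% in Gb, 6.14% in Ha and 5.66% in Hb. For Mir17hg it was 14.3%, 14.7%, 9.997%, 10.95% and 11.3% in the same order of libraries, Ga, Gc, Gb, Ha and Hb. Erythroid barcodes, named by 3 or more markers and by globin RNA, should lack T cell RNA of their own. They were taken only without a Cd3 UMI, which leaves out those that caught free Cd3 RNA. Their shares can therefore understate the level of free RNA. Of 165 such barcodes without a Cd3 UMI, 1.21% held a Mir155hg UMI (exact 95% Clopper-Pearson interval 0.147% to 4.31%) and 0.606% a Mir17hg UMI (0.0153% to 3.33%), at a median of 8273 UMIs. The Cd3+ shares of both hosts in each library were above these pooled values, an order that this choice of barcodes favours. By library the erythroid barcodes numbered 30 to 35, and both with Mir155hg were in Gc. The upper limits at this depth lie above the Mir155hg shares of Gb (10.0%), Gc (19.2%), Ha (10.3%) and Hb (11.6%), and for Mir17hg above those of Gb (10.0%), Gc (14.9%) and Hb (11.6%), so no excess was detectable there within a library. After each barcode was thinned to 3000 UMIs, which left out 169 to 330 shallower barcodes per library, the Mir155hg shares were 13.7% in Ga, 11.7% in Gc, 3.30% in Gb, 2.90% in Ha and 2.92% in Hb, and the Mir17hg shares ran from 4.48% to 5.50%.

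Mir155hg was higher the more of Irf4, Nr4a1 and Il2ra a cell held, most clearly in Ga and Gc, where these classes were well filled. In Ga it stood at 15.9 CPM (14.6 to 17.4) in the 3636 barcodes with none of these genes, 56.4 (50.9 to 62.2) in the 719 with 1, 413 (393 to 435) in the 339 with 2, and 761 (741 to 782) in the 542 with all 3. Gc gave nearly the same steps: 15.5 CPM (14.3 to 16.7) in 4647 barcodes, 50.2 (45.5 to 55.3) in 856, 357 (339 to 375) in 368, and 775 (755 to 795) in 548. The share of barcodes with a Mir155hg UMI went from 8.55% to 85.4% in Ga and from 7.53% to 83.4% in Gc between the first and the last class.

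The other 3 libraries held few barcodes beyond the first class. In Gb, Mir155hg was at 14.9 CPM (13.4 to 16.6) in 2927 barcodes with none of the genes, 38.5 (29.8 to 49.0) in 135 with 1, and 70.6 (39.5 to 116) in 18 with 2. In Ha it was at 11.4 (10.3 to 12.6) in 3983, 20.3 (14.8 to 27.2) in 200, and 258 (190 to 343) in 14. In Hb it was at 10.4 (9.32 to 11.6) in 3796, 28.3 (20.4 to 38.2) in 134, and 65.9 (18.0 to 169) in 7. Barcodes with all 3 genes numbered 1 in Gb, 3 in Ha and 1 in Hb, and of the 50 Mir155hg UMIs in those of Ha, 34 came from a single barcode.

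**Figure D1:**
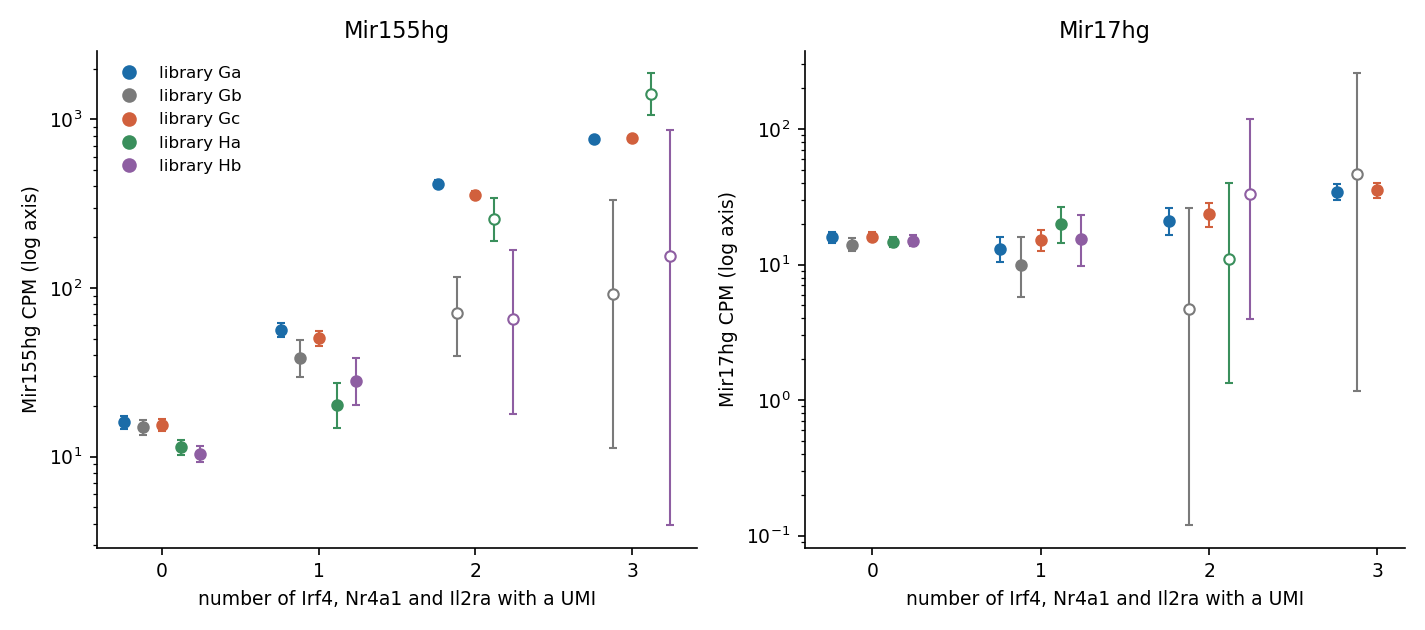
Level of Mir155hg (left) and Mir17hg (right) in CPM on log axes, in Cd3+ barcodes of each library, by the number of Irf4, Nr4a1 and Il2ra with a UMI. Points are the level of all barcodes of a class together, bars exact 95% Poisson intervals, hollow points classes of fewer than 30 barcodes, and classes without a UMI of the host are not drawn; Mir155hg reaches 761 and 775 CPM in Ga and Gc while Mir17hg stays under 36 in these libraries.

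Against barcodes with none of the genes, those with 2 or 3 held 40.1 times the Mir155hg level in Ga (log2 ratio 5.33, exact binomial interval 5.20 to 5.46), 40.2 times in Gc (5.33, 5.21 to 5.45), 39.2 times in Ha (5.29, 4.96 to 5.62), 7.15 times in Hb (2.84, 1.21 to 4.08) and 4.86 times in Gb (2.28, 1.49 to 2.98). The median of the 5 was 5.29. The Ha, Gb and Hb values rest on 97, 17 and 5 UMIs in 17, 19 and 8 barcodes. Without the barcode with most Mir155hg UMIs in each pool, a setting added after the values were seen, the median was 4.83. By library the ratio was then 5.34 in Ga, 5.35 in Gc, 4.83 in Ha, 1.97 in Gb and 0.73 in Hb, where 4 of the 5 UMIs came from that barcode.

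Mir17hg differed less between the classes, and mainly at 2 and 3 genes. In Ga it stood at 15.9 CPM (14.5 to 17.3) in barcodes with none of the 3 genes, 12.9 (10.4 to 15.9) with 1, 20.9 (16.5 to 26.1) with 2 and 34.4 (30.2 to 39.1) with all 3. In Gc the values were 16.0 (14.8 to 17.3), 15.1 (12.6 to 18.0), 23.4 (19.0 to 28.5) and 35.3 (31.2 to 39.9). Between barcodes with 1 gene and with none the log2 ratio of Mir17hg was -0.29 (-0.63 to 0.03) in Ga and -0.09 (-0.37 to 0.19) in Gc, while Mir155hg in the same barcodes was 3.53 and 3.25 times as high.

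The Mir17hg ratio of barcodes with 2 or 3 genes to those with none was 1.87-fold in Ga (log2 0.91, 0.70 to 1.11) and 1.93-fold in Gc (log2 0.95, 0.76 to 1.14), from 311 and 361 UMIs. In each of Gb, Ha and Hb only 2 Mir17hg UMIs lay in those barcodes, and the log2 ratios of -0.72 (-3.77 to 1.15), -0.68 (-3.73 to 1.18) and 0.99 (-2.06 to 2.85) include no change. The median of the 5, 0.91, is the value of Ga. Without the highest barcode of each pool, the setting added later, it was -1.56, since the 3 sparse libraries then held at most 1 UMI each. Hb held 0 UMIs and was ranked lowest rather than set to 3 counts, so the median depends on that choice. Ga and Gc stayed at 0.87 and 0.95.

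In Ga, 12.9% of 12451 genes with 50 or more UMIs in the compared barcodes were at least 2-fold higher in barcodes with 2 or 3 genes, and in Gc 14.2% of 13085. Mir155hg was among them, 39th by ratio in Ga and 74th in Gc, and Mir17hg was not, at ranks 1826 and 1989. The rule that chose the pair used this contrast, so nothing is read from the ranks. Barcodes with more of the 3 genes were also deeper, with a median of 8362 UMIs at none and 11541 at all 3 in Ga. With classes and hosts both read from barcodes thinned to 3000 UMIs, Mir155hg in Ga went from 18.6 CPM (16.2 to 21.2) at none to 926 (865 to 991) at all 3, and Mir17hg from 17.4 (15.1 to 19.9) to 34.6 (23.7 to 48.9). In Gc the thinned values were 16.3 (14.3 to 18.5) and 904 (843 to 967) for Mir155hg, and 16.1 (14.1 to 18.3) and 43.3 (30.9 to 58.9) for Mir17hg.

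The spread between libraries shrank when these cells were left out. In barcodes with none of the 3 genes, Mir155hg spanned 0.62 on the log2 scale (0.41 to 0.82), or 1.53-fold, from 15.9 CPM in Ga to 10.4 in Hb. Ga, Gc and Gb then had overlapping intervals, as did Ha and Hb, and the first 3 lay above the last 2. This split is the same as that between matrices G and H, from which it cannot be told apart. Among barcodes with none of 8 early response genes (Irf4, Il2ra, Egr1, Egr2, Egr3, Nr4a1, Nr4a2 and Nr4a3), the span was 0.64 (0.42 to 0.85). Mir17hg spanned 0.19 (-0.0038 to 0.39) in barcodes with none of the 3 genes and 0.21 (0.0028 to 0.42) in those with none of the 8.

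The UMIs of Mir155hg were concentrated in few cells, those of Mir17hg were spread thinly. In Ga, the 16.8% of barcodes with 2 or 3 genes held 88.3% of the Mir155hg UMIs, 34.7% of the Mir17hg UMIs and 21.5% of all UMIs. In Gc, 14.3% of barcodes held 87.6%, 32.3% and 19.7%. Only 152 of 5236 barcodes in Ga (2.90%) and 143 of 6419 in Gc (2.23%) accounted for 50% of the Mir155hg UMIs, against 300 (5.73%) and 384 (5.98%) for Mir17hg.

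Within a class Mir155hg was far from uniform. Among the 542 barcodes of Ga with all 3 genes, 14.6% held no Mir155hg UMI, the median barcode held 6.5, the upper quartile 15 and the highest 121. In Gc 16.6% held none, with a median of 6, an upper quartile of 15 and a maximum of 137. Barcodes with 10 or more Mir155hg UMIs made up 38.6% and 39.6% of this class, and 0.0275% and 0.0861% of the barcodes with none of the genes. For Mir17hg the highest barcode held 11 UMIs in Ga and 6 in Gc, and 635 of 747 positive barcodes in Ga held exactly 1.

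The 3 genes did not mark Mir155hg equally. In Ga, barcodes with a UMI of Nr4a1 alone held 19.3 CPM (13.5 to 26.8), overlapping the 15.9 of barcodes with none, while those with Irf4 alone held 59.9 (50.3 to 70.8) and those with Il2ra alone 78.1 (68.1 to 89.2). In Gc the same 3 values were 27.8 (21.2 to 35.7), 54.4 (46.0 to 63.9) and 61.6 (53.5 to 70.7). Among barcodes with 2 genes, Irf4 with Il2ra stood apart: 537 CPM (509 to 566) in Ga and 482 (458 to 508) in Gc.

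Irf4 with Nr4a1 but without Il2ra gave 84.9 CPM (63.4 to 111) in Ga and 87.7 (69.1 to 110) in Gc. Nr4a1 with Il2ra gave 206 (169 to 249) in Ga and 80.6 (57.3 to 110) in Gc, the one combination at which the libraries differed beyond counting error by more than 2-fold; it held 52 and 50 barcodes. Mir17hg reached 24.4 CPM (18.6 to 31.3) and 24.3 (19.0 to 30.6) with Irf4 and Il2ra together, against 13.1 (5.64 to 25.8) and 19.6 (11.4 to 31.4) with Irf4 and Nr4a1, intervals that overlap.

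**Figure D2:**
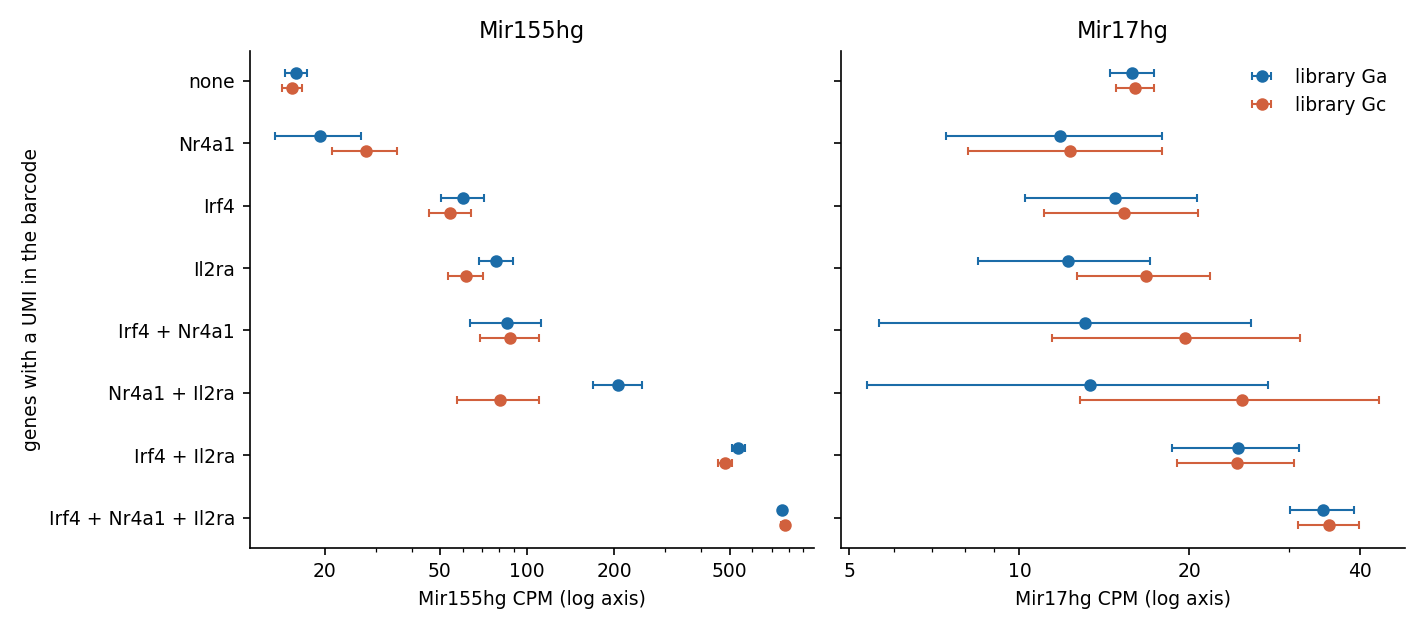
Level of Mir155hg (left) and Mir17hg (right) in CPM on log axes, in Cd3+ barcodes of libraries Ga and Gc, by which of Irf4, Nr4a1 and Il2ra had a UMI. Points are the level of all barcodes of a combination together and bars exact 95% Poisson intervals; for Mir155hg the barcodes with Irf4 and Il2ra (537 and 482 CPM) lie below those with all 3 genes (761 and 775 CPM) and above those with Irf4 and Nr4a1 (84.9 and 87.7 CPM).

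Over the 8 early response genes, Mir155hg was higher up to 5 genes, though not at every step in Gc, and not steadily higher beyond. In Ga it stood at 15.6 CPM with none of them, 42.1 with 1, 247 with 2, 387 with 3, 617 with 4 and 781 (741 to 822) with 5. From 6 to all 8 it was 747, 707 and 711 (657 to 769), no higher than at 5. In Gc it stood at 14.5 CPM with none, 31.0 with 1, 257 (239 to 275) with 2, 260.5 (239 to 283) with 3, 453 with 4 and 787 (746 to 831) with 5. From 6 to all 8 it was 833, 719 and 820 (776 to 866). Mir17hg was at 16.4 (14.9 to 18.0) with none and 48.6 (35.2 to 65.5) with all 8 in Ga, and at 16.3 (15.0 to 17.7) and 34.2 (25.6 to 44.8) in Gc, without a steady climb in between.

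**Figure D3:**
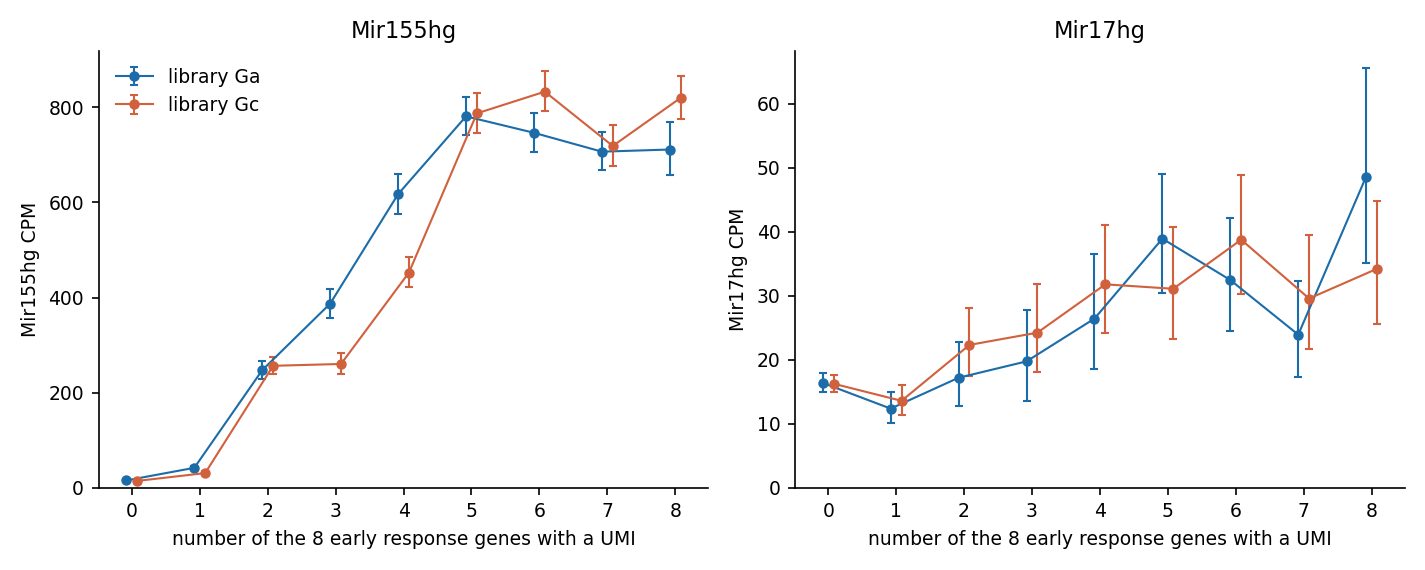
Level of Mir155hg (left) and Mir17hg (right) in CPM in Cd3+ barcodes of libraries Ga and Gc, by the number of Irf4, Il2ra, Egr1, Egr2, Egr3, Nr4a1, Nr4a2 and Nr4a3 with a UMI. Points are the level of all barcodes together at each number and bars exact 95% Poisson intervals; Mir155hg is at 781 and 787 CPM with 5 genes, and between 707 and 833 with 6 to 8.

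Graded by the amount of single genes, Mir155hg was higher with more Irf4. Irf4 is 1 of the 3 genes of the rule that chose Mir155hg, so nothing is read from this order. In Ga it went from 23.6 CPM (22.1 to 25.3) in barcodes without Irf4 to 115 with 1 Irf4 UMI, 252 with 2, 407 with 3 to 5, 648 with 6 to 10 and 903 (873 to 932) with over 10. In Gc the same bins held 20.2, 79.7, 226.7, 376, 665 and 894 (866 to 922). Barcodes with more Irf4 were deeper, with a median of 8447 UMIs without Irf4 and 12430 with over 10 in Ga, and these bins were not thinned. Mir155hg was also higher with more Junb, an AP-1 factor outside the naming rule. From none to over 10 Junb UMIs it went from 49.0 to 732 CPM in Ga and from 42.2 to 552 in Gc. Batf, an AP-1 factor and partner of Irf4 named here after its values were seen, showed no steady order in Ga, where Mir155hg stood at 144 CPM without a Batf UMI, 230 with 1, 197.5 with 2 and 178 with 3 to 5. In Gc it went from 126 without Batf to 272 with 3 to 5 and 387 with 6 to 10. From none to 3 to 5 Batf UMIs it went from 14.5 to 59.0 in Gb, from 9.83 to 77.0 in Ha and from 8.98 to 34.7 in Hb.

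Mir17hg was higher with more Myc, the factor best known to drive it, and also with more Irf4. Over the Irf4 bins it went from 15.3 CPM (14.1 to 16.7) without Irf4 to 40.7 (34.7 to 47.4) with over 10 UMIs in Ga, and from 16.0 (14.9 to 17.2) to 34.3 (29.0 to 40.2) in Gc. Over the Myc bins of Ga it went from 15.8 CPM (14.6 to 17.0) in 4595 barcodes without Myc to 17.3 with 1 Myc UMI, 29.8 with 2, 40.7 with 3 to 5, 48.3 with 6 to 10 and 72.7 (52.2 to 98.6) in 30 barcodes with over 10. In Gc the bins held 16.8, 20.1, 25.4, 29.8, 42.8 and 50.8 (39.0 to 65.1). The barcodes with more Myc were deeper, with a median of 8577 UMIs without Myc and 14624 with over 10 in Ga. After thinning to 3000 UMIs the order held: 18.5 CPM (16.4 to 20.9), 30.6 (18.1 to 48.4) and 52.1 (29.2 to 85.9) with 0, 1 and 2 or more Myc UMIs in Ga, and 16.5 (14.7 to 18.6), 33.6 (21.3 to 50.5) and 54.1 (32.6 to 84.5) in Gc.

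In Gb, Ha and Hb few barcodes held more than 1 Myc UMI, and Mir17hg with 1 Myc UMI (17.1, 15.1 and 14.4 CPM) was within counting error of that without (13.7, 14.9 and 15.1). Mir155hg was also higher over the Myc bins of Ga, from 67.5 CPM to 1227 (1137 to 1322), and in Gc from 53.0 to 1101 with 6 to 10 Myc UMIs and 866 (815 to 920) above that. Which of the 2 graders each host follows more closely was not tested.

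**Figure D4:**
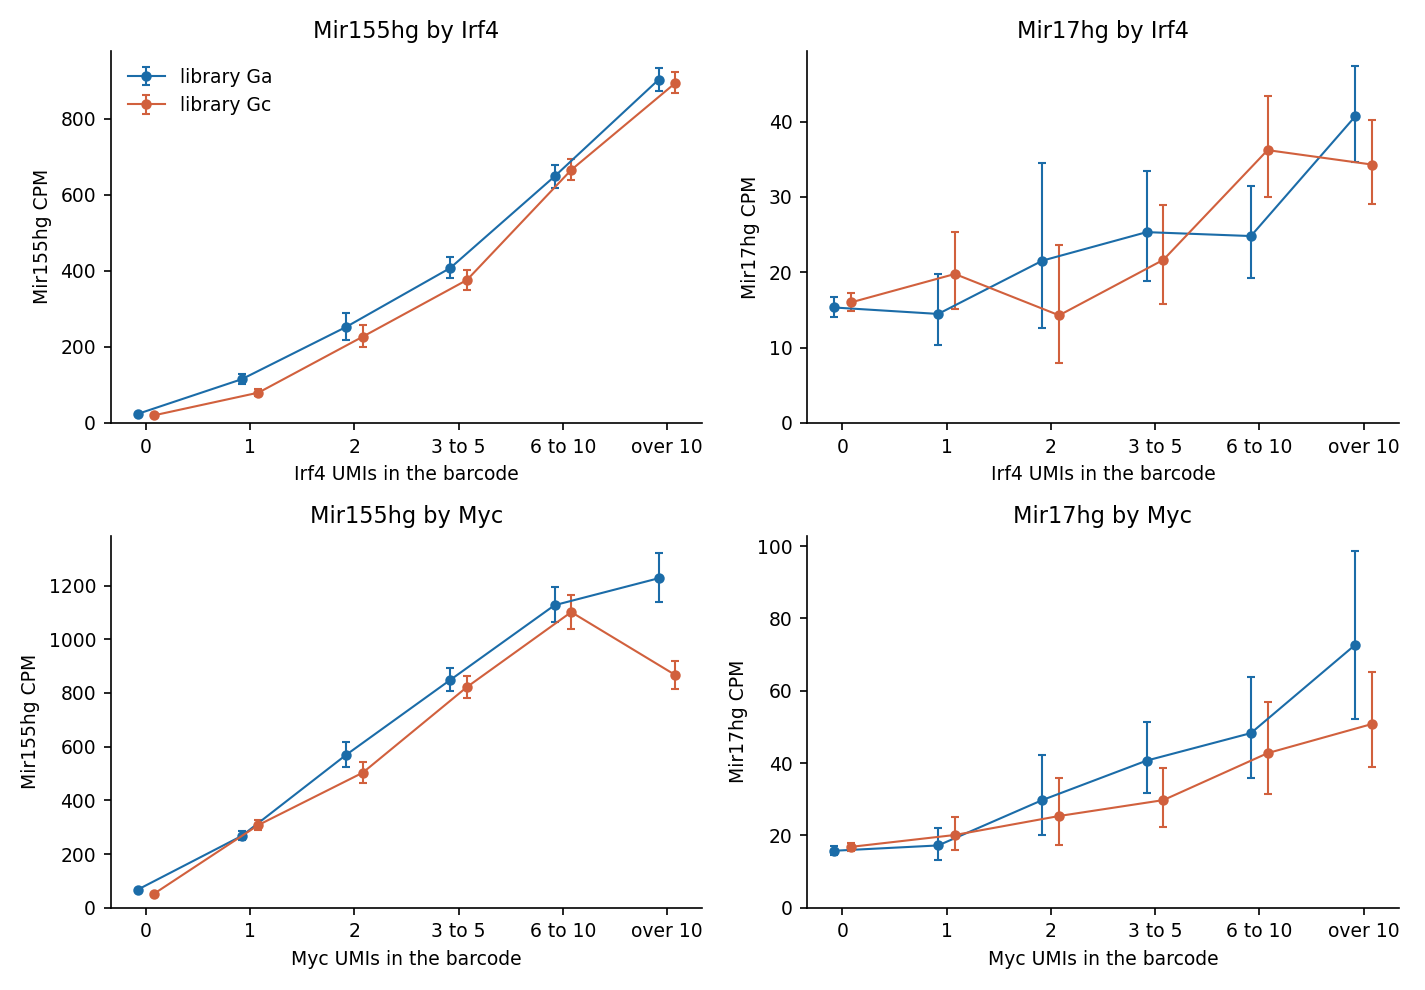
Level of Mir155hg (left) and Mir17hg (right) in CPM in Cd3+ barcodes of libraries Ga and Gc, by the Irf4 UMIs (top) and the Myc UMIs (bottom) of the barcode. Points are the level of all barcodes of a bin together and bars exact 95% Poisson intervals; Mir155hg reaches 903 and 894 CPM at over 10 Irf4 UMIs, and Mir17hg reaches 72.7 and 50.8 CPM at over 10 Myc UMIs.

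Whether the 2 host RNAs lie in the same cells was read from barcodes thinned to 3000 UMIs, with the classes set before thinning. Mir17hg had a UMI in 7.86% of Ga barcodes with Mir155hg (5.96% to 10.1%) and in 5.12% of those without (4.48% to 5.82%). In Gc the shares were 8.30% (6.38% to 10.6%) and 4.78% (4.22% to 5.38%). Among barcodes with none of the 3 genes the shares were 3.39% and 5.12% in Ga and 2.74% and 4.72% in Gc, with the opposite order in Ha (9.57% and 4.55%) and Hb (7.14% and 4.38%), where the intervals overlapped. Among barcodes with all 3 genes they were 10.4% (7.52% to 14.0%) and 6.71% (3.40% to 11.7%) in Ga and 11.97% and 8.95% in Gc. Within either class the intervals overlapped at this depth, and a difference was not tested.

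The 2 hosts also differed across kinds of T cell. In barcodes with none of the 3 genes but with a UMI of Foxp3, Mir155hg stood at 47.2 CPM (31.8 to 67.3) in Ga, 43.6 (29.6 to 61.9) in Ha, 40.2 (23.4 to 64.3) in Hb, 37.0 (19.7 to 63.2) in Gb and 16.9 (8.11 to 31.1) in Gc. Barcodes of the same class with Cd4 and neither Foxp3 nor Trdc held 12.1, 10.2, 9.56, 14.8 and 15.2 CPM in that order of libraries. The Foxp3 barcodes lay higher beyond counting error in 4 of 5 libraries, and in Gc the intervals overlapped. They numbered 39 to 64 per library.

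Mir17hg in the same Foxp3 barcodes rested on 1 to 12 UMIs and ranged from 2.36 CPM in Hb to 18.9 in Ga. Barcodes with Trdc and no Cd4, in the class with none of the 3 genes, held 10.5 to 19.5 CPM of Mir155hg and 10.5 to 16.6 of Mir17hg. Their Mir155hg level was above that of the Cd4 barcodes beyond counting error in Ga (19.4, 15.6 to 23.9, against 12.1, 10.6 to 13.9) and in Ha (15.7, 12.2 to 19.97, against 10.2, 8.82 to 11.6), and the intervals overlapped in the other 3 libraries. With 2 or 3 of the genes, Mir155hg in these Trdc barcodes was at 473 CPM (424 to 525) in Ga and 568 (509 to 632) in Gc, beside 470 (447 to 494) and 537 (514 to 560) in Cd4 barcodes without Foxp3 or Trdc. The high Mir155hg level was therefore present in barcodes of both kinds. They were 58 and 267 of the 881 barcodes with 2 or 3 genes in Ga, and 46 and 298 of 916 in Gc. Most of that class thus fell in neither kind, and as a whole it held 640 and 622 CPM. Its Foxp3 barcodes held 523 CPM in Ga and 530 in Gc. In Ga, 121 of their 233 Mir155hg UMIs came from a single barcode, and in Gc 137 of 368. Barcodes of this class with Cd8a or Cd8b1 and without Cd4, Foxp3 or Trdc held 687 and 656.

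Of the 12 factors listed as known inducers of Mir155hg, 8 were at least 2-fold higher in barcodes with 2 or 3 genes in Ga and the same 8 in Gc, and none was 2-fold lower. This compares with 12.9% and 14.2% of all genes tested that were higher, and 16.9% and 14.0% that were lower. The list median was a log2 ratio of 1.61 in Ga and 1.44 in Gc, beside -0.074 and -0.025 over all genes. Ratios of listed genes were computed with 0.5 added to the counts. They are given for Ga and Gc unless another library is named, and some genes differed in Gb, Ha and Hb.

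Nfkb1, the p105 precursor of an NF-kB subunit, went from 293 to 2373 CPM in Ga (log2 3.02, 2.98 to 3.05) and from 306 to 2345 in Gc (2.94, 2.91 to 2.97). Fos and Fosb, immediate early AP-1 subunits, had log2 ratios of 3.40 (2.92 to 3.93) and 2.84 (2.04 to 3.74) in Ga and 3.69 and 3.56 in Gc, at levels under 22 CPM. Rel, the c-Rel subunit named outside the naming rule after its values were seen, went from 95.5 to 575 CPM in Ga and from 100.1 to 592 in Gc.

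Not every AP-1 gene followed. Jun was at -0.54 (-0.75 to -0.33) in Ga and -0.07 (-0.24 to 0.10) in Gc, and Jund at 0.20 (0.14 to 0.25) and 0.08 (0.03 to 0.14). In Gb, Ha and Hb, Jun was at 1.27 (0.47 to 1.90), -0.17 (-1.74 to 0.84) and 3.45 (2.75 to 4.01), on 18, 6 and 23 UMIs. Myb, a transcription factor of immature lymphocytes, had 1.14 (1.08 to 1.20) and 1.02 (0.96 to 1.07). In Gb, Ha and Hb it had -0.88 (-1.63 to -0.29), -0.54 (-1.09 to -0.07) and -0.10 (-1.23 to 0.71). Of the 5 listed inducers of Mir17hg, 4 had 100 or more UMIs. Myc went from 6.35 to 163 CPM in Ga (4.68, 4.47 to 4.90) and from 6.09 to 155 in Gc (4.66, 4.47 to 4.87).

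The E2F genes, which drive entry into S phase, had ratios of both signs. E2f3 went from 12.5 to 19.0 CPM in Ga (0.60, 0.35 to 0.85) and from 12.7 to 26.2 in Gc (1.05, 0.84 to 1.26). E2f1 had -0.20 (-1.13 to 0.59) and 0.32 (-0.31 to 0.88). E2f2 had -2.37 (-4.16 to -1.22) in Ga, on 5 UMIs in the barcodes with 2 or 3 genes, and -0.61 (-1.59 to 0.19) in Gc.

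Of 16 genes of the machinery that makes and uses microRNAs, from the nuclear processor Drosha to the Argonaute and Tnrc6 effectors, 1 was at least 2-fold higher and 1 lower in both libraries, beside 12.9% and 14.2% of all genes higher and 16.9% and 14.0% lower. The medians were 0.0011 and 0.026, beside -0.074 and -0.025 over all genes. The higher gene was Ran, the GTPase that carries precursors out of the nucleus with exportin and has many other cargoes, from 92.8 to 404 CPM in Ga (2.12, 2.05 to 2.19) and from 90.7 to 389 in Gc. The lower gene was Prkra, a Dicer partner, from 11.2 to 2.29 CPM in Ga (-2.26, -2.95 to -1.70) and from 11.5 to 2.91 in Gc.

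Ago2, the Argonaute that can cut its target, had 0.94 (0.89 to 0.998) in Ga and 0.76 (0.71 to 0.81) in Gc. Tnrc6b and Tnrc6c, scaffolds that recruit the deadenylases, had -0.84 and -0.63 in Ga and -0.79 and -0.63 in Gc. Ago4 was too sparse to place, at 3 and 4 UMIs in the barcodes with 2 or 3 genes.

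Genes known from the field as targets of miR-155 had ratios of both signs in the cells rich in its host RNA. Of 13, 4 were at least 2-fold higher in both libraries, and 2 were lower in Ga and 1 in Gc, where 12.9% and 14.2% of all genes were higher and 16.9% and 14.0% lower. The medians were 0.25 and 0.18, beside -0.074 and -0.025 over all genes. The RNA of a target reflects its own transcription too, and the part of the microRNA was not tested. The higher genes were Cebpb, a C/EBP transcription factor (3.49 in Ga, 3.19 in Gc), Fosl2, an AP-1 subunit (3.27 and 2.93), Trp53inp1, a p53-induced stress protein (1.42 and 1.29), and Spi1, the myeloid factor PU.1 (2.26 and 1.15, under 8 CPM in each class).

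The lower genes were Ifngr1, a chain of the interferon gamma receptor, and Peli1, a ubiquitin ligase. Ifngr1 went from 698 to 142 CPM in Ga (-2.29, -2.37 to -2.22) and from 732 to 162 in Gc (-2.18, -2.25 to -2.11), and Peli1 had -1.09 in Ga and -0.97 in Gc. In Gb, Ha and Hb, Ifngr1 had -0.42 (-0.69 to -0.17), -0.63 (-0.91 to -0.37) and 0.24 (-0.17 to 0.60). Ikbke, an IKK-related kinase, had -0.96 and -0.82. Socs1, a brake on cytokine signaling, and Inpp5d, the phosphatase SHIP1, both named outside the naming rule, had 0.13 (0.01 to 0.26) and -0.03 (-0.11 to 0.06) in Ga, and 0.12 and -0.05 in Gc.

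Of 13 targets listed for the miR-17-92 cluster, 1 was at least 2-fold higher in Ga and 2 in Gc, and 3 were lower in Ga and 1 in Gc, counts near the shares of all genes (12.9% and 14.2% higher, 16.9% and 14.0% lower). The medians were -0.20 and 0.024. Cdkn1a, the cyclin-dependent kinase inhibitor p21, was higher in both, from 0.834 to 94.7 CPM in Ga (6.80, 6.27 to 7.45) and from 1.52 to 90.5 in Gc (5.88, 5.52 to 6.29), and E2f3 passed 2-fold in Gc. Rbl2, the pocket protein p130, was lower in both (-1.35, -1.52 to -1.18, and -1.05, -1.20 to -0.91), and Tgfbr2, a receptor chain for TGF-beta, in Ga with E2f2 (Tgfbr2 -1.06 in Ga, -0.998 in Gc).

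Cyld, a deubiquitinase that restrains NF-kB, had -0.88 and -0.85. Rora, a nuclear receptor of innate-like and helper T cells, had -0.28 (-0.39 to -0.17) in Ga and 0.26 (0.17 to 0.36) in Gc, and Ikzf4, a factor of regulatory T cells, had -0.45 and -0.56. In Gb, Ha and Hb, Rora had 2.72 (2.47 to 2.96), 1.75 (1.39 to 2.08) and 3.12 (2.69 to 3.50), on 153, 74 and 53 UMIs. Ikzf4 had 1.11, 1.14 and 2.49 there, on 8, 6 and 5 UMIs.

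**Figure D5:**
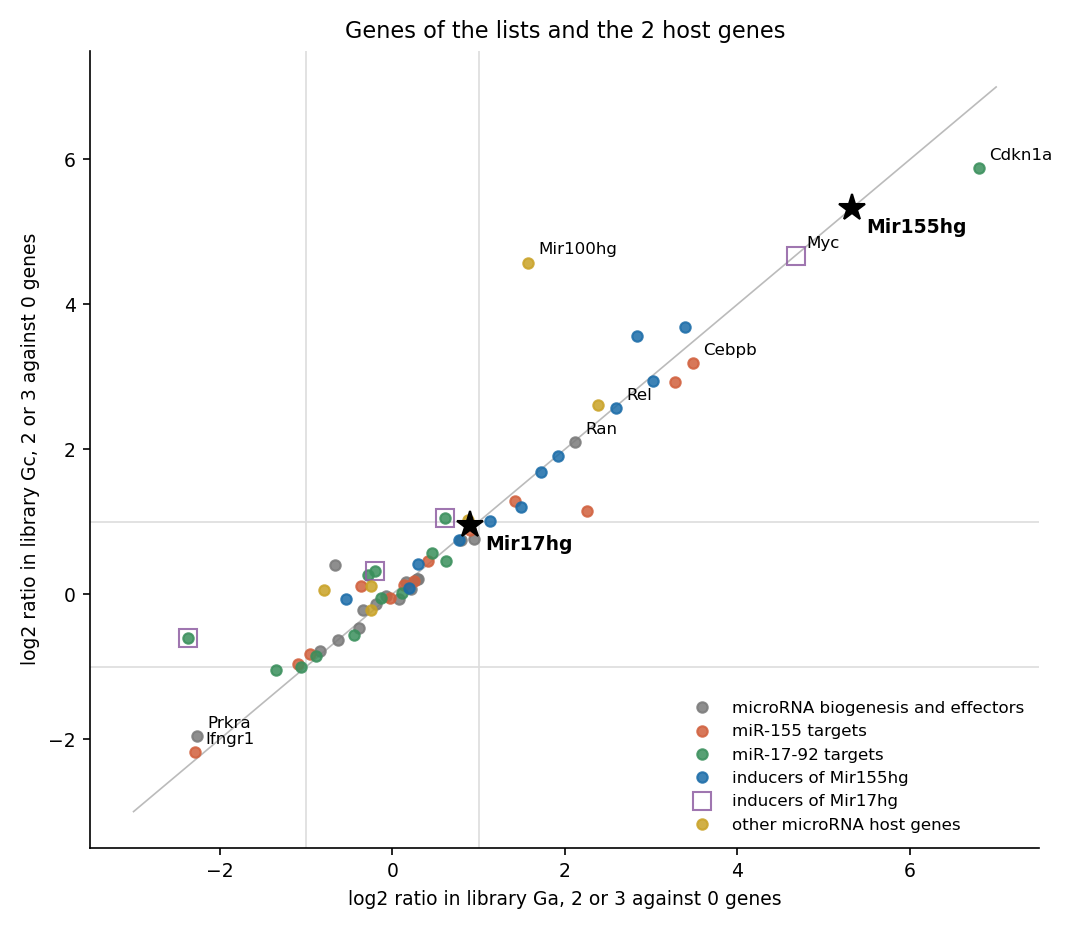
Log2 ratio of barcodes with 2 or 3 of Irf4, Nr4a1 and Il2ra to barcodes with none, in library Ga (horizontal) and Gc (vertical), for listed genes with enough UMIs and for the 2 hosts (stars). The diagonal marks equal ratios and the grey lines 2-fold; Mir155hg lies at 5.33 in both libraries near Myc and below Cdkn1a, Mir17hg at 0.91 and 0.95, and open squares mark inducers of Mir17hg, some of which are also listed as targets.

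Of the 10 other host gene symbols, 6 had 50 or more UMIs in Cd3+ barcodes. In Ga and Gc none of these was as much higher as Mir155hg in barcodes with 2 or 3 genes. Mir155hg was chosen on this contrast, so nothing is read from that order. In Ga, 2 were at least 2-fold higher (Mir99ahg, 2.39, and Mir100hg, 1.57 on 4 UMIs), and in Gc these 2 (2.61 and 4.58) and Mir22hg, beside 12.9% and 14.2% of all genes. Mir142hg, the host of miR-142 of blood cells, had a UMI in 91.1% to 92.5% of Cd3+ barcodes and spanned only 951 to 1003 CPM over the 5 libraries. Its log2 ratio was -0.24 (-0.28 to -0.21) in Ga and -0.22 (-0.25 to -0.19) in Gc. In Gb, Ha and Hb it was lower, at -1.19 (-1.49 to -0.92), -1.09 (-1.40 to -0.82) and -1.47 (-2.14 to -0.93). These values rest on 105, 98 and 24 UMIs. Mir22hg had 0.88 (0.50 to 1.24) and 1.03 (0.69 to 1.36), at 5.69 to 7.11 CPM over the libraries. In Gb it had 4.06 (3.16 to 4.79) on 16 UMIs, above the 2.28 (1.49 to 2.98) of Mir155hg there. In Ha it had 2.63 (1.32 to 3.55) on 8 UMIs, below Mir155hg. In Hb it had 2.14 (-3.76 to 4.05) on 1 UMI, an interval that overlaps that of Mir155hg there (2.84, 1.21 to 4.08).

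Mir133a-1hg and Mir670hg stayed under 2.71 CPM, with intervals of the ratio that included 0 in Ga and Gc. Mir99ahg stood at 6.997 CPM in Gb and at 0.736 to 1.74 in the others, and Mir100hg at 8.86 in Gb, 1.99 in Gc and 0.177 to 0.248 in the others. Of the Mir99ahg UMIs, 43 of 67 in Ga and 57 of 103 in Gc came from 3 barcodes in each library. In Gb, 125 of the 180 Mir99ahg UMIs came from 3 barcodes, 54 of them from the barcode with 278399 UMIs. Of the 228 Mir100hg UMIs in Gb, 166 came from that same barcode, which held all 6 fibroblast markers, and of the 118 in Gc, 100 came from 1 barcode with 237972 UMIs and 4 of these markers. The ratio of Mir100hg in Gc, 4.58, thus rests on 1 barcode.

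The genes most like each host were named by the Pearson correlation of log2(CPM + 1) over 14 pools of a library and a class with 30 or more barcodes. The pools share libraries and depth, so the values describe these pools and have no test. Closest to Mir155hg among 13115 genes was Slc7a1, a transporter of cationic amino acids (r = 0.995). Eif2s2, a translation initiation subunit, Aldh18a1, of proline synthesis, Slc7a5, a transporter of large neutral amino acids, Cd6, a T cell surface receptor, and Gars, glycyl-tRNA synthetase, followed at 0.992 to 0.995. Siah2, A430093F15Rik, Rhbdd1 and Nfkb1 completed the 10, at 0.991 to 0.992.

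Slc7a1 went from 59.7 to 565 CPM in Ga and from 53.7 to 555 in Gc, log2 ratios of 3.24 and 3.37, smaller than those of Mir155hg. Closest to Mir17hg were Slc52a2, a riboflavin transporter (r = 0.966), BC005561, Zap70, the kinase of the T cell receptor, Wdr61, Mga, a Max partner, Ntrk3, Gripap1, Acsl4, Il2 and Sdad1, from 0.961 down to 0.948. Their ratios in Ga ran from 0.52 for Mga to 5.18 for Il2, the cytokine interleukin-2. The correlation of the 2 hosts with each other over the same pools was 0.784.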

How the data were processed

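The deposited files hold UMI counts per gene and barcode from the 10x 5' v2 kit, made by the authors with Cell Ranger 6.0.0 on mm10, per the submitters' processing notes; per the file headers the matrices come from cellranger 7.1.0. How introns were treated, and whether depth was equalised between libraries, was not given in the sources used here. Barcodes kept 500 or more UMIs, at most 10% mitochondrial UMIs and a Cd3d, Cd3e or Cd3g UMI. No doublet caller was run; an alternative left out deep barcodes and those with markers of other types. UMIs were summed per library and class and divided by all UMIs (CPM). Intervals are exact 95% Poisson, Clopper-Pearson or binomial, treat UMIs as independent and cover counting error only; a count of 0 allows up to 3 counts. With 5 unassigned libraries no test was run. Genes were named by a rule: at most 6 per list by highest and lowest median ratio, other host genes with 50 or more UMIs, and the 10 genes most like each host. The members and lists were chosen with earlier results of these data known. The ratio computation was tested on simulated data. Coordinates come from the annotation of GRCm38, the assembly of mm10. RefSeq places the Mir17hg start 1511 bases inside the annotated gene, so no promoter is shown. Python 3.11.15, numpy 2.4.6, scipy 1.17.1 and pandas 2.3.3 were used. The value of 1 member of a list is not reported here.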

Additional observations from a re-analysis of the deposited data

Results flagged for a closer look

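Barcodes that passed the filter but held no Cd3 UMI, which the comparisons do not use, carried both hosts. Over the 5 libraries, 2016 such barcodes held 908 Mir155hg UMIs and 101 Mir17hg UMIs, at a median of 1022 UMIs per barcode. Of the Mir155hg UMIs, 905 lay in the 1808 barcodes with a Trac UMI and 3 in the 208 without. The 98 barcodes with Trac and 2 or 3 of Irf4, Nr4a1 and Il2ra held 762 of them, 1138 CPM (1058 to 1221). By library, 457 of the 908 lay in Ga, 407 in Gc, 23 in Ha, 17 in Gb and 4 in Hb. Of 24 barcodes with B cell markers and no Cd3 UMI, the 5 of Gc held 57 of 59 Mir155hg UMIs.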

How the results depend on the processing

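Each of 4 summaries was recomputed under the planned settings and without the highest barcode of each pool, which was chosen after seeing the data. The Mir155hg ratio (median log2 5.29) kept its sign in all 17. In 10 it was within the counting interval of its median library, Ha (4.96 to 5.62), which is not an interval of the median. The median was 4.57 in barcodes of 5000 to 12000 UMIs and 4.17 with classes by 8 genes. It was 4.005 with classes by Cd69, Tnfrsf9 and Nr4a3, and 4.83 without the highest barcodes. Leaving out each library in turn gave 4.07 to 5.31. The Mir155hg span (3.79) was 3.63 with 3 or more Cd3 UMIs, 3.57 after thinning, 3.40 in barcodes of 5000 to 12000 UMIs and 3.56 as a mean of per-cell CPM, and 3.43 to 3.79 with each library left out. The Mir17hg ratio (0.91) was 0.64 as a mean of per-cell CPM, 0.14 with 8 genes, 0.28 with Cd69, Tnfrsf9 and Nr4a3, and 0.11 to 0.93 with each library left out. Without the highest barcodes it was -1.56, on 1 UMI in Gb and with Hb, at 0 UMIs, ranked lowest, while Ga and Gc gave 0.87 and 0.95. It had no median after thinning or in Cd4 barcodes without Foxp3 or Trdc, since 3 libraries held 0 UMIs; Ga and Gc then gave 0.80 and 1.07, and 0.72 and 0.61. The Mir17hg span (0.46) stayed within its interval in all 14, from 0.29 to 0.47. The cause of these shifts was not tested. No paired analysis was possible because no library could be tied to a sample.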
